A study of Mus musculus with 8 samples.

Results

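Visceral endoderm and liver-type secretory genes are described here across embryoid bodies and ES cells, from a list of 30 gene names taken up by symbol. Of these, 29 had an Affymetrix probe set annotated with that symbol alone, among 18193 genes with such a probe set on the array. Soat2, which esterifies cholesterol, had none named here. The 29 genes were grouped by role as 4 transcription factors, 8 lipoprotein genes, 10 genes of other plasma proteins, 4 genes of endocytic uptake and 3 genes of the epithelial membrane and brush border.

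The series used CCE, an embryonic stem (ES) cell line from mice of strain 129/Sv, and asked whether the Polycomb protein Bmi1 affects blood formation from them. There were 2 arrays in each of 4 groups. Bmi1-labelled embryoid bodies grew for 10 days from cells infected with a lentivirus for mouse Bmi1 cDNA, and vector embryoid bodies grew for 10 days from cells infected with the empty lentivirus. Bmi1-labelled ES cells carried the same Bmi1 virus, and the control ES cells were 1 untreated and 1 empty vector array. Infected cells were sorted for eGFP, and no sorting of single clones is described. The labels do not say whether the arrays of a group came from separate cultures, so the p-values measure the spread between arrays, which may be technical.

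Visceral endoderm is the outer epithelium of the early mouse embryo and covers the surface of embryoid bodies. It takes up maternal nutrients through megalin and cubilin, breaks them down, and secretes plasma proteins and lipoproteins before a liver exists. Factors of the Foxa family and Hnf4a act on many of the same secretory genes in the visceral endoderm and, later, in hepatocytes. The list does not tell visceral endoderm from fetal liver cells by itself.

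Expression is given as log2 RMA values, so a difference of 1 is a 2-fold difference. Array medians lay between 5.57 and 5.98. A gene was tested where its brightest probe set, by the mean over all arrays, exceeded the median on at least 2 of the 8 arrays. By this rule 19 of the 29 genes were tested and 10 were too dim, namely Apob, Apoc2, Alb, Fga, Fgg, F2, F10, Cubn, Vil1 and Slc2a2. Of the 19, Foxa1, Apoa2, Afp and Fgb passed through embryoid body arrays alone, 4 passed through ES cell arrays alone (Foxa3, Apoa4, Ahsg and Amn), and 11 passed at both stages. The signal of the transduced gene went against the labels: Bmi1 read 7.48 and 8.51 in Bmi1-labelled embryoid bodies, below the vector values of 9.35 and 9.67, and 5.68 and 6.28 in Bmi1-labelled ES cells, below 7.41 on the untreated and 7.74 on the empty vector array. These values are from the brighter of 2 Bmi1 probe sets, and whether it lies within the transduced cDNA was not tested. No direction below can therefore be assigned to a gain of Bmi1. The embryoid body arrays also fell into pairs by replicate number, 1 array of each label in a pair, with nearly equal value distributions within a pair. For that reason differences between the labels are given within each pair, called set 1 and set 2. In bulk RNA, fewer cells of a type and less RNA per cell cannot be told apart.

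**Figure D1:**
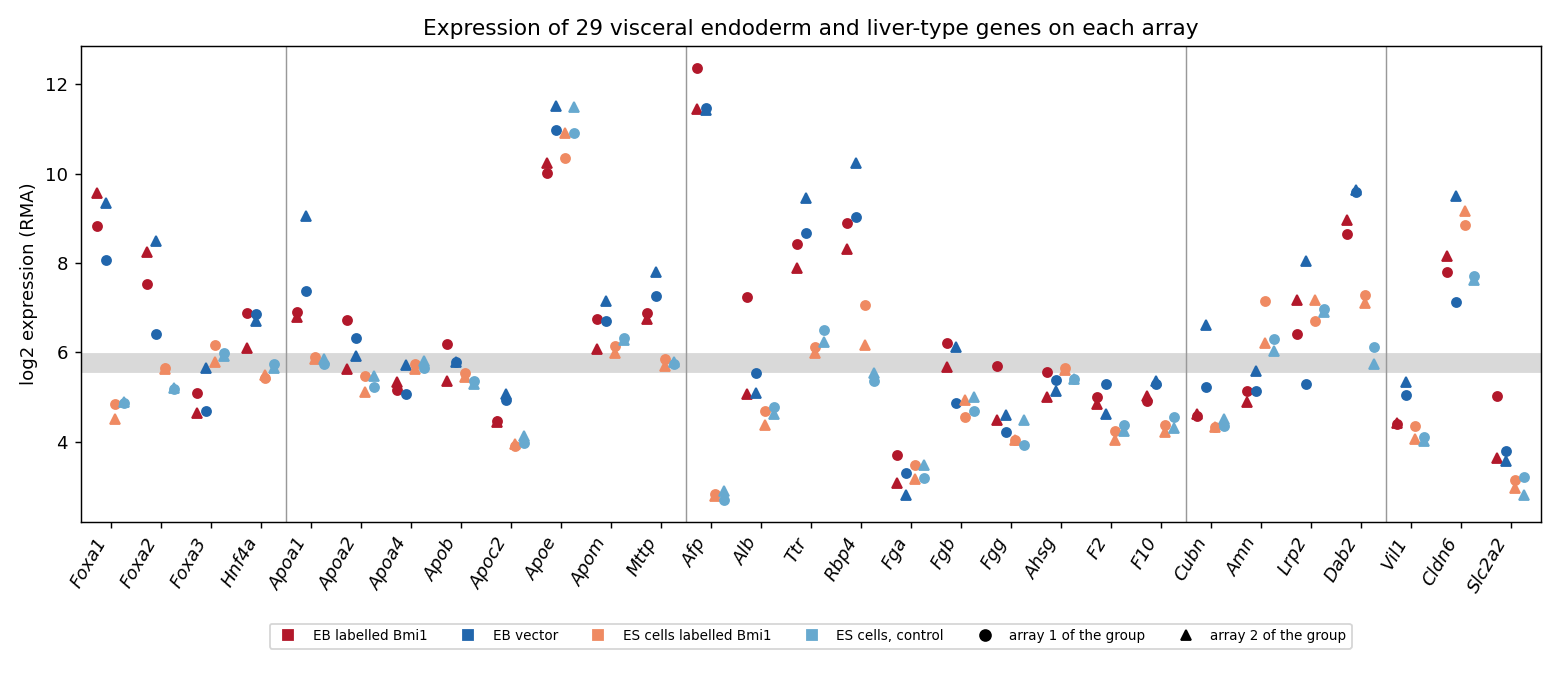
Log2 expression (vertical axis) of the 29 genes on each of the 8 arrays, with colours for the 4 groups, circles and triangles for the arrays 1 and 2 of a group, vertical lines between the role groups and a grey band for the range of array medians (5.57 to 5.98). Afp lies between 11.42 and 12.37 in embryoid bodies and between 2.70 and 2.89 in ES cells, whereas Apoe is at 10.00 or above in every sample.

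Embryoid bodies and ES cells were compared first within vector or control samples. In vector embryoid bodies 9 of the 19 tested genes rose over control ES cells and 0 fell: Afp, Rbp4, Foxa1, Dab2, Ttr, Apoa1, Foxa2, Mttp and Hnf4a. Of the 11 genes above the median at both stages 7 rose, and the other 2 rises, Afp and Foxa1, were of genes that passed the filter through embryoid bodies alone and so had to be higher there. Of the 7, Foxa2 and Rbp4 were below the median on both control ES cell arrays. At the ES stage they passed only through arrays labelled Bmi1, which are not part of this comparison. Among all 12982 genes tested, 22.7% rose and 35.8% fell. The median difference was 0.78 over the 19 genes and -0.24 over all tested genes. Over all 29 genes, the groups did not overlap and embryoid bodies were higher for 19, against 34.6% of all genes with a named probe set, and they were lower for 3, against 40.4%. The p-values were adjusted over all tested genes with limma. Quantile normalization turned the shift of all genes to -0.04 and median centring to -0.56, and the share of rises among all calls was 38.8% as deposited, 48.7% after quantile normalization and 26.6% after centring. Of the 9 rises only Hnf4a was not called after quantile normalization, where Apoe was called in its place, and all 9 were called after centring. Both scalings added Amn and Foxa3 as falls. Without either control ES cell array Foxa2 was not called (adjusted p = 0.063 and 0.0629), and Hnf4a was not called without the empty vector array (adjusted p = 0.058).

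Foxa1, a forkhead factor that opens chromatin at endodermal genes, read 8.06 and 9.34 in vector embryoid bodies, against 4.86 and 4.88 in control ES cells. The groups were far apart, and Foxa1 rose by 3.83 ± 0.43 (SE, n = 2 arrays each; adjusted p = 0.000439). Its vector embryoid bodies averaged 3.10 above the medians of the control ES cell arrays, where Foxa1 itself was dim. Foxa2, the family member that acts earliest in endoderm, stood at 6.42 and 8.50 in vector embryoid bodies, against 5.19 and 5.19 in control ES cells. Its vector embryoid bodies differed by more than 2 from each other, and the rise was 2.27 ± 0.60 (SE; adjusted p = 0.0145). Hnf4a, a nuclear receptor that visceral endoderm needs for its secretory programme, had 6.85 and 6.71 in vector embryoid bodies and 5.75 and 5.66 in control ES cells. This was the smallest of the 9 rises, 1.08 ± 0.26 (SE; adjusted p = 0.00942). Its size depended on the probe set: 1450447_at differed by 0.20 with overlapping groups, and the dimmer 1421983_s_at and 1427000_at differed by 0.61 and 1.21. Foxa3, the third of the family, lay the other way, with 4.69 and 5.65 in vector embryoid bodies against 5.98 and 5.92 in control ES cells (adjusted p = 0.0793).

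Afp, the main serum protein of the fetus, read 11.46 and 11.42 in vector embryoid bodies, against 2.70 and 2.89 in control ES cells, a fitted rise of 8.65 ± 0.29 (SE; adjusted p = 1.36e-05). The ES cell values lay far below the array median, where a log difference is not exact, and the vector embryoid bodies averaged 5.83 above the medians of the control ES cell arrays. The other 4 Afp probe sets differed by 0.64 to 7.47. Alb, which encodes albumin and is the gene next to Afp, read 5.54 and 5.09 in vector embryoid bodies and 4.77 and 4.62 in control ES cells, too dim to test. Rbp4, the plasma carrier of retinol, rose by 4.18 ± 0.45 (SE; adjusted p = 0.000401). Its values were 9.02 and 10.24 in vector embryoid bodies, against 5.37 and 5.53 in control ES cells. Ttr, which carries thyroid hormone and the Rbp4 complex, had 8.68 and 9.46 in vector embryoid bodies and 6.50 and 6.23 in control ES cells on its brightest probe set. On this probe set Ttr rose by 2.70 ± 0.30 (SE; adjusted p = 0.000435), whereas its other 3 probe sets differed by 6.58 to 7.24. The size of the Ttr difference thus depended on the probe set, and its brightest one also read above the median in ES cells.

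Clotting and transport proteins of the mature liver were mostly dim. Fgb, the fibrinogen beta chain, had 4.87 and 6.12 in vector embryoid bodies and 4.70 and 5.01 in control ES cells (adjusted p = 0.215). Fga and Fgg, the alpha and gamma chains, did not pass the filter, with differences of -0.28 and 0.20. F2 (prothrombin) and F10 (coagulation factor X) were also too dim, with differences of 0.64 and 0.90. Ahsg, the serum glycoprotein fetuin-A, differed by -0.14 and was not called (adjusted p = 0.596).

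Among the lipoprotein genes 2 of 6 tested rose. Apoa1, the main protein of high-density lipoprotein, had 7.37 and 9.06 in vector embryoid bodies, against 5.74 and 5.85 in control ES cells. The rise was 2.42 ± 0.47 (SE; adjusted p = 0.00411), with a wide gap between the vector embryoid bodies. Mttp, which loads lipid onto apolipoprotein B, rose by 1.76 ± 0.21 (SE; adjusted p = 0.000564), with 7.26 and 7.79 in vector embryoid bodies and 5.74 and 5.79 in control ES cells. Apoe, a ligand of lipoprotein receptors, was high at both stages, with 10.98 and 11.51 in vector embryoid bodies and 10.91 and 11.50 in control ES cells. The Apoe difference of 0.04 turned sign after median centring (-0.28) and was called after quantile normalization (0.92; adjusted p = 0.0248). Apoa2 (0.78) and Apom (0.63), both of high-density lipoprotein, did not pass the threshold (adjusted p = 0.103 and 0.0721), and neither did Apoa4 (-0.34; adjusted p = 0.253). The second probe set of Apoa4 went the other way (0.67). Apob, the structural protein of the particles that Mttp fills, was represented by a probe set too dim to test. Its other probe set, 1455593_at, was above the median on 3 arrays, all of embryoid bodies. It read 6.93 and 7.88 in vector embryoid bodies, against 3.46 and 3.72 in control ES cells. With its probe sets averaged, Apob was tested and called, at 2.14 (limma, adjusted p = 0.000295). In samples labelled Bmi1 the averaged difference was 1.31 (adjusted p = 0.00199). The averaged Apob passed through embryoid bodies alone and so had to be higher there. Apoc2, the cofactor of lipoprotein lipase, was too dim to test, at 4.93 and 5.07 in vector embryoid bodies and 3.97 and 4.12 in control ES cells.

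Dab2, the adaptor that links megalin to the endocytic machinery, was the one uptake gene that rose. It had 9.58 and 9.63 in vector embryoid bodies, against 6.12 and 5.74 in control ES cells, a rise of 3.68 ± 0.20 (SE; adjusted p = 3.68e-05). Lrp2, which encodes megalin, read 5.29 and 8.05 in vector embryoid bodies and 6.98 and 6.91 in control ES cells, so that the ES cells lay between the vector embryoid bodies. Cubn, which encodes cubilin, was too dim to test, at 5.22 and 6.62 in vector embryoid bodies and 4.36 and 4.50 in control ES cells. Amn, the membrane partner that brings cubilin to the surface, was lower in vector embryoid bodies, at 5.14 and 5.59, than in control ES cells, at 6.31 and 6.02 (adjusted p = 0.0677). Of the epithelial genes only Cldn6, a tight junction claudin, was tested, with 7.13 and 9.49 in vector embryoid bodies and 7.70 and 7.62 in control ES cells (adjusted p = 0.423). Vil1, which bundles actin in microvilli, and the glucose transporter gene Slc2a2 were too dim to test, with differences of 1.13 and 0.67.

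In samples labelled Bmi1, 9 of the 19 genes rose in embryoid bodies over ES cells and 2 fell, against 21.2% and 38% of all tested genes. The rises were Afp, Foxa1, Foxa2, Ttr, Rbp4, Dab2, Fgb, Mttp and Hnf4a, and Amn and Foxa3 fell. Of the 11 genes above the median at both stages 6 rose and 0 fell. Among the 6, Hnf4a was below the median on both Bmi1-labelled ES cell arrays. It passed at the ES stage only through control arrays, which are not part of this comparison. The rises of Afp, Foxa1 and Fgb were of genes that passed through embryoid bodies alone, and both falls were of genes that passed through ES cells alone. Fgb had 6.20 and 5.67 in Bmi1-labelled embryoid bodies, against 4.55 and 4.92 in Bmi1-labelled ES cells, a rise of 1.20 ± 0.41 (SE; adjusted p = 0.0385). By the way it passed the filter, Fgb had to be higher in embryoid bodies. Its Bmi1-labelled embryoid bodies averaged only 0.34 above the medians of the Bmi1-labelled ES cell arrays, where Fgb itself was dim. Apoa1 was not called here, at 6.90 and 6.79 in Bmi1-labelled embryoid bodies and 5.90 and 5.84 in Bmi1-labelled ES cells (0.97; adjusted p = 0.114). Amn fell by 1.67 ± 0.33 on the log2 scale (SE; adjusted p = 0.00416) and Foxa3 fell by 1.11 ± 0.33 (SE; adjusted p = 0.0232). Over all 29 genes the groups did not overlap and embryoid bodies were higher for 19, against 34.2% of all genes with a named probe set, and lower for 6, against 41.2%. Fgb, Foxa2, Foxa3 and Hnf4a were not called without either ES replicate labelled Bmi1, and Rbp4 was not called without ES replicate 2. These fits leave 1 array in that group, and leaving out arrays also changed the calls over all tested genes. Quantile normalization gave 7 rises, without Fgb and Hnf4a, and 3 falls, with Ahsg added. Centring gave 8 rises, without Fgb, and 5 falls, with Ahsg, Apoa4 and Apoe added. The share of rises among all calls was 35.8% as deposited, 47.3% after quantile normalization and 22.8% after centring. A term for the embryoid body set brought the calls to 11 higher and 4 lower of the 19 genes. With that term 74.4% of tested genes were called either way, 27.8% higher and 46.6% lower. In vector or control samples the same term brought the calls to 11 higher and 0 lower of the 19 genes. There 74.8% of tested genes were called either way, 29.5% higher and 45.3% lower.

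**Figure D2:**
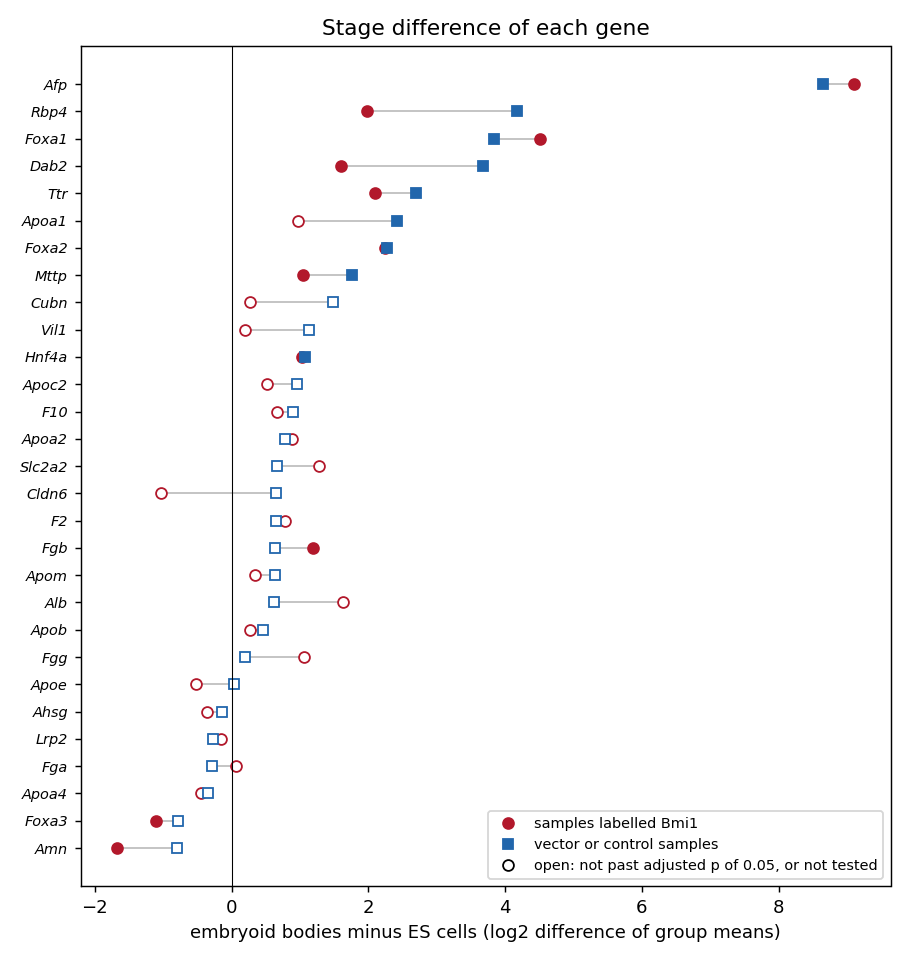
Log2 difference between the group means of embryoid bodies and ES cells (horizontal axis) for the 29 genes, as circles for samples labelled Bmi1 and squares for vector or control samples, with filled symbols where the adjusted p was below 0.05. On the brightest probe sets shown, Afp stands at 9.10 and 8.65, and Dab2, Rbp4 and Apoa1 show gaps between the samples labelled Bmi1 and the vector or control samples.

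Some of the 29 genes lie side by side in the mouse genome, by the order of protein-coding genes in RefSeq GRCm38.p6. Levels of different probe sets cannot be set against each other, so only each gene's own difference is given. Afp and Alb have no gene between them, and their differences between vector embryoid bodies and control ES cells were 8.65 and 0.62, Alb being too dim to test. Fga lies between Fgb and Fgg, and the differences of Fga, Fgb and Fgg were -0.28, 0.64 and 0.20. Apoa1 and Apoa4 have 1 gene between them, Apoc3, and differed by 2.42 and -0.34, although the second Apoa4 probe set gave 0.67. Apoe and Apoc2 are separated by 2 genes, Apoc4 and Apoc1. The promoter sequences of Afp, Alb, Apoa1, Fga and Fgb are shown because Afp with Alb and Fga with Fgb are adjacent genes, Apoa1 holds the forkhead letters more than once, and all hold letters known from liver promoters. They are the 250 bases before the RefSeq start, 5′ to 3′ on the gene's strand. Capitals mark GTTAAT, a half-site of the factor HNF1, and TGTTTNC, the core of the forkhead motif, on either strand, and no marked stretches overlap.
Afp (chr5:90490464-90490713, GRCm38.p6, plus strand): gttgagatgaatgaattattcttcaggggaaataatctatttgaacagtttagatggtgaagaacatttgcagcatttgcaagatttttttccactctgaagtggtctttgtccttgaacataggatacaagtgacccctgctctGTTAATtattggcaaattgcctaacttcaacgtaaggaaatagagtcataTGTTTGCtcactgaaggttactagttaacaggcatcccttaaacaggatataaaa
Alb (chr5:90460620-90460869, GRCm38.p6, plus strand): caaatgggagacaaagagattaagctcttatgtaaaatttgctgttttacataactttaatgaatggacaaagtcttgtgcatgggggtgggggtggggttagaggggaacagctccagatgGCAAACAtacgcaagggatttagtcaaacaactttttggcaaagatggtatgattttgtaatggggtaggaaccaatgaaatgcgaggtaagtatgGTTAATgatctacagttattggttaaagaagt
Apoa1 (chr9:46228380-46228629, GRCm38.p6, plus strand): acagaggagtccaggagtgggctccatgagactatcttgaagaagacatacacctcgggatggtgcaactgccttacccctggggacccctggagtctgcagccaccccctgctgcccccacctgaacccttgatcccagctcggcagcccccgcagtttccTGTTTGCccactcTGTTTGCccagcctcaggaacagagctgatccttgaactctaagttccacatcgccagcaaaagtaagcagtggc
Fga (chr3:83025903-83026152, GRCm38.p6, plus strand): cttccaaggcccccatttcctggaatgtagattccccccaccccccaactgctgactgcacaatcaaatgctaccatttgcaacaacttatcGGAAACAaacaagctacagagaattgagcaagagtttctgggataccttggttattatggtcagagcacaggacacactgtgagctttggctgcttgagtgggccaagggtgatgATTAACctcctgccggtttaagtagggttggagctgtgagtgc
Fgb (chr3:83049864-83050113, GRCm38.p6, minus strand): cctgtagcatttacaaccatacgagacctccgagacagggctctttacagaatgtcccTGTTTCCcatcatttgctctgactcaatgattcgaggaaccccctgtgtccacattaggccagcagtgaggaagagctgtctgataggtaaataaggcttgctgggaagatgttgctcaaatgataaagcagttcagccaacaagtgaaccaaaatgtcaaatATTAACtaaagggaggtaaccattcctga
The forkhead letters were in 12 of the 28 member promoters given by RefSeq (42.9%), against 17.9% of 27025 promoters of the same length. The HNF1 half-site was in 5 of 28 (17.9%), namely Afp, Alb, Apoc2, Fga and Fgb, against 6.52%. Both occur in Afp, 105 and 55 bases before the start, and both occur in Alb, 32 and 128 bases before it. Apoa1 holds the forkhead letters at 88 and 75 bases and no HNF1 half-site, whereas Fga holds the half-site at 43 and the forkhead letters at 158 bases, and Fgb at 29 and 192. The letters AGATAA, to which Gata factors bind, were in 1 of 28 (3.6%), the Hnf4a promoter, against 10.3%, and CAAAGTCCA, to which HNF4A binds, was in 0 of 28, against 0.381%. These matches are descriptions of letters, and promoters with and without them occurred among both the tested and the dim genes.

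Bmi1-labelled embryoid bodies were then set against vector embryoid bodies. None of the 19 tested genes passed the threshold, while 11 of the 29 had both values labelled Bmi1 below both vector values and 0 had both above. The 11 were Apoa1, Apoc2, Apoe, Mttp, Ttr, Rbp4, F10, Cubn, Amn, Dab2 and Vil1, which spans lipoproteins, retinol carriers, uptake and brush border. Of all genes with a named probe set, 12.3% lay entirely lower and 9.36% entirely higher. With limma, 0 of 19 were called, where 0.139% of all tested genes were, and 0 were called with a term for the embryoid body set, where 2.09% were. An unadjusted p below 0.05 was reached by 5 of 19 (26.3%), all lower in Bmi1-labelled embryoid bodies, against 7.06% of tested genes. With the set term it was reached by 6 of 19 (31.6%), against 21.3%, and the gene added, Foxa1, was higher in Bmi1-labelled embryoid bodies. The median difference over the 19 was -0.31 and that over all tested genes was -0.04.

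The sets did not show this equally. The median difference was 0.08 in set 1 and -0.69 in set 2, against -0.05 and -0.03 over all tested genes. Of the 29 genes, 11 were lower in Bmi1-labelled embryoid bodies within both sets, against 32.9% of all genes, 4 were higher in both, against 26%, and 14 differed in sign. By role, the counts lower in both, higher in both and mixed were 0, 1 and 3 for the transcription factors and 4, 0 and 4 for the lipoprotein genes. They were 3, 2 and 5 for the other plasma proteins, 3, 0 and 1 for the uptake genes, and 1, 1 and 1 for the epithelial genes. Both arrays of set 2 stood apart: vector replicate 2 was the highest of the 4 embryoid body arrays for 17 of the 29 genes (58.6%), against 27.9% of all genes, and replicate 2 labelled Bmi1 was the lowest for 13 (44.8%), against 22.8%. Replicate 1 labelled Bmi1 was the highest for 10 (34.5%), against 24.3%. Leaving out each array in turn moved the median of -0.31 over the 19 genes between -0.75 and -0.12. The root mean square difference between replicates over the 19 genes was 0.587 in Bmi1-labelled embryoid bodies and 1.22 in vector embryoid bodies, against 0.509 and 0.669 over all tested genes.

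**Figure D3:**
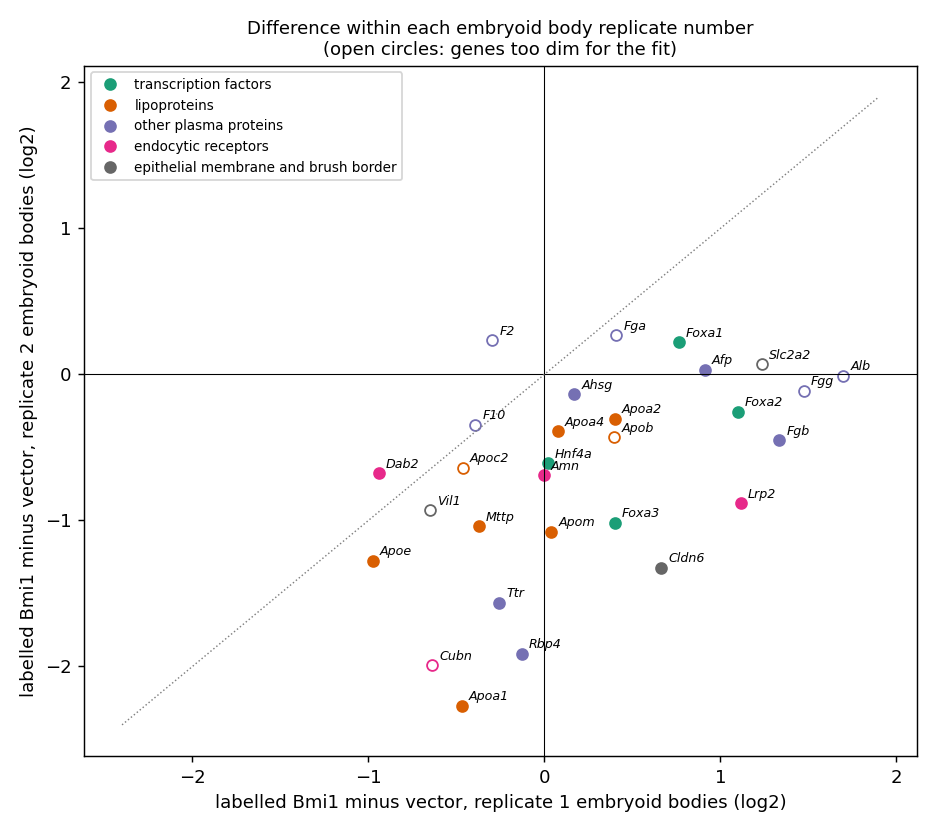
Log2 difference between Bmi1-labelled embryoid bodies and vector embryoid bodies within set 1 (horizontal axis) and set 2 (vertical axis), one point a gene, coloured by role, open where the gene was too dim to test, with the dotted line marking equal differences. Points lie mostly below the line, with a median of 0.08 in set 1 and -0.61 in set 2 over the 29 genes, and Dab2 and Apoe are low in both.

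Apoe had 10.00 and 10.23 in Bmi1-labelled embryoid bodies, against 10.98 and 11.51 in vector embryoid bodies. The groups did not overlap, and the sets differed little, at -0.98 and -1.28. The fitted difference was -1.13 ± 0.30 (SE, n = 2 arrays each; adjusted p = 0.352, or 0.0767 with the set term). Mttp read 6.88 and 6.75 in Bmi1-labelled embryoid bodies, against 7.26 and 7.79 in vector embryoid bodies, with -0.37 and -1.04 within the sets (-0.71 ± 0.21, SE; adjusted p = 0.439, or 0.0886 with the set term). Its second probe set gave -0.57 and -0.68. Apoa1 showed 6.90 and 6.79 in Bmi1-labelled embryoid bodies, against 7.37 and 9.06 in vector embryoid bodies. Its difference of -1.37 ± 0.47 (SE; adjusted p = 0.545) came mostly from set 2, at -2.27 against -0.47 in set 1. Without vector replicate 1 the Apoa1 difference was -2.21, and without vector replicate 2 it was -0.53. All 4 Apoa1 probe sets lay lower in both sets. Apob lay lower in both sets on 1455593_at, with 5.82 and 5.90 in Bmi1-labelled embryoid bodies against 6.93 and 7.88 in vector embryoid bodies, but not on its brightest probe set, at 0.40 and -0.43. Apoc2, too dim to test, lay lower in both sets (-0.46 and -0.64). Apoa2 and Apoa4 differed by 0.05 and -0.16, and Apom by -0.52, with 0.04 in set 1 and -1.08 in set 2. Summed over the 8 lipoprotein genes, linear signal was 1606.2 and 1642.1 in Bmi1-labelled embryoid bodies, against 2639.4 and 4012.8 in vector embryoid bodies, a sum that Apoe dominates.

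Ttr had 8.42 and 7.89 in Bmi1-labelled embryoid bodies, against 8.68 and 9.46 in vector embryoid bodies. The groups did not overlap, and the within-set differences were -0.26 and -1.56 (-0.91 ± 0.30, SE; adjusted p = 0.513). Rbp4, its partner in retinol transport, read 8.89 and 8.32 in Bmi1-labelled embryoid bodies, against 9.02 and 10.24 in vector embryoid bodies, so that nearly all of its difference lay in set 2 (-0.13 and -1.91; adjusted p = 0.733). Afp lay on the other side, with 12.37 and 11.45 in Bmi1-labelled embryoid bodies against 11.46 and 11.42 in vector embryoid bodies. Only replicate 1 labelled Bmi1 was apart, and the difference of 0.47 ± 0.29 (SE) had an adjusted p of 0.846. Of the other 4 Afp probe sets, 2 differed by 0.44 and 0.24 and 2 by -0.10 and -0.02. The same array was the high one for Alb, at 7.24 against 5.08 in the other array labelled Bmi1 and 5.54 and 5.09 in vector embryoid bodies. It was also the highest for Fgg, at 5.69, and for Slc2a2, at 5.02. Fgb had 6.20 and 5.67 in Bmi1-labelled embryoid bodies and 4.87 and 6.12 in vector embryoid bodies, with 1.33 in set 1 and -0.45 in set 2. Ahsg, Fga and F2 differed by 0.02, 0.34 and -0.03, and F10 by -0.37 with both sets lower.

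Foxa1 had 8.82 and 9.56 in Bmi1-labelled embryoid bodies, against 8.06 and 9.34 in vector embryoid bodies, higher in both sets (0.76 and 0.22; adjusted p = 0.923, or 0.178 with the set term). Foxa2 read 7.52 and 8.24 in Bmi1-labelled embryoid bodies, against 6.42 and 8.50 in vector embryoid bodies, with sets of opposite sign (1.10 and -0.25). Hnf4a stood at 6.87 and 6.10 in Bmi1-labelled embryoid bodies and 6.85 and 6.71 in vector embryoid bodies (0.02 and -0.61; adjusted p = 0.926). Its probe sets disagreed: 1450447_at gave 0.60 and 0.11 within the sets, and the other 2 gave 0.17 and 0.10 in set 1 but -0.75 and -1.81 in set 2. Foxa3 had 5.09 and 4.63 in Bmi1-labelled embryoid bodies and 4.69 and 5.65 in vector embryoid bodies, also of opposite sign between the sets.

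Dab2 had the smallest unadjusted p of the 19 genes and was the most even across the sets. It read 8.64 and 8.95 in Bmi1-labelled embryoid bodies, against 9.58 and 9.63 in vector embryoid bodies, with -0.94 and -0.68 within the sets. The fitted difference was -0.81 ± 0.20 (SE; adjusted p = 0.315, or 0.0637 with the set term). Cubn, too dim to test, was lower in both sets on both of its probe sets, with 4.59 and 4.62 in Bmi1-labelled embryoid bodies against 5.22 and 6.62 in vector embryoid bodies on the brighter one. Amn had 5.14 and 4.90 in Bmi1-labelled embryoid bodies and 5.14 and 5.59 in vector embryoid bodies, a gap in set 2 alone (-0.003 and -0.69; adjusted p = 0.945). Lrp2 read 6.41 and 7.17 in Bmi1-labelled embryoid bodies, inside the vector values of 5.29 and 8.05, and its 3 probe sets averaged 0.12, -0.19 and 0.00. Cldn6 likewise had 7.79 and 8.16 in Bmi1-labelled embryoid bodies, inside the vector values of 7.13 and 9.49. Vil1, too dim to test, had 4.39 and 4.42 in Bmi1-labelled embryoid bodies, against 5.05 and 5.35 in vector embryoid bodies.

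Genes outside the list that serve the same roles were counted from further lists of endoderm and uptake genes. With the set term 2.09% of all tested genes were called, which is the background to the counts given with it. Of 10 tested endoderm transcription factors, 0 were called between the embryoid body groups, and with the set term 2 fell, Gata4 by 1.04 (adjusted p = 0.0286) and Sox17 by 0.83 (adjusted p = 0.0375). Gata4, a zinc finger factor of extraembryonic endoderm, had 6.23 and 6.69 in Bmi1-labelled embryoid bodies and 7.15 and 7.86 in vector embryoid bodies. Of 11 further lipoprotein genes, 0 were called, and with the set term 1 rose, Lipg, an endothelial lipase, by 1.61 (adjusted p = 0.00769). No call was made among 9 further plasma protein genes, 13 endocytosis genes or 11 parietal endoderm genes, with or without the set term. Of 7 visceral endoderm patterning genes, 0 were called, and with the set term 1 rose, the homeobox gene Rhox5, by 2.26 (adjusted p = 0.0159). Of 6 definitive endoderm genes, 0 were called, and with the set term 1 fell, Nepn, by 0.77 (adjusted p = 0.0286). Of 13 mature liver genes with a probe set, 11 were too dim to test. Between vector embryoid bodies and control ES cells, where 22.7% of tested genes rose and 35.8% fell, 6 rose and 1 fell of the 9 plasma protein genes, 8 and 1 of the 11 parietal endoderm genes, and 5 and 1 of the 10 endoderm transcription factors. The counts were 5 and 3 of the 13 endocytosis genes, 4 and 1 of the 7 patterning genes, 2 and 3 of the 11 lipoprotein genes, and 2 and 2 of the 6 definitive endoderm genes.

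Markers of other cell types were summed as linear signal, and none was called without the set term. Over 5 primitive red cell genes the sum was 1117.9 to 1940.6 in Bmi1-labelled embryoid bodies, against 3707.6 to 4753.9 in vector embryoid bodies. Of the 4 tested, 0 were called, 4 were lower with an unadjusted p below 0.05, and 2 were called lower with the set term (2.09% of all tested genes). Their median difference was -1.53. Over 7 endothelial genes the sum was 1240.5 and 1348.3 in Bmi1-labelled embryoid bodies, against 2201.6 and 2267.4 in vector embryoid bodies, with 0 of 7 called and 3 lower with the set term. Over 6 trophoblast genes it was 3036.1 to 3178.0 in Bmi1-labelled embryoid bodies and 1085.8 to 1729.5 in vector embryoid bodies, with 0 of 5 tested called and 2 higher with the set term. Over 8 genes of macrophages, cells that also make Apoe, it was 1619.1 to 2317.6 in Bmi1-labelled embryoid bodies and 757.6 to 3607.7 in vector embryoid bodies, with 0 of 6 tested called, so that the groups overlapped. Their median difference was -1.09 in set 1 and 0.93 in set 2, whereas Apoe lay lower in both. The part of these cell types in the values of the 29 genes was not tested.

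Among ES cells, those labelled Bmi1 and the controls gave no called difference for the 19 genes by limma (0.0462% of all tested genes were called). An unadjusted p below 0.05 was reached by 2 of 19 (10.5%), against 6.29% of tested genes. Of the 29, 6 lay entirely higher and 6 entirely lower in Bmi1-labelled ES cells, against 22.6% and 19.4% of all genes with a named probe set. Dab2 read 7.29 and 7.10 in Bmi1-labelled ES cells, against 6.12 on the untreated and 5.74 on the empty vector array. The difference was 1.27 ± 0.20 (SE; adjusted p = 0.128, or 0.0292 with the set term, where 1.66% of tested genes were called). Rbp4 had 7.07 and 6.18 in Bmi1-labelled ES cells, against 5.37 on the untreated and 5.53 on the empty vector array (adjusted p = 0.691). Cldn6 had 8.85 and 9.16 in Bmi1-labelled ES cells, against 7.70 and 7.62 in control ES cells (adjusted p = 0.949). A fit of the ES cell arrays alone called Dab2 (adjusted p = 0.0492) and Cldn6 (adjusted p = 0.0345). The share of all tested genes called in that fit was at most 1.66%, the highest over the alternatives. The other 3 Dab2 probe sets read between 3.21 and 4.74 in all ES cells, below the array median.

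The labelled Bmi1 comparison of embryoid bodies was set against that of ES cells by their difference. No gene was called among the 19, nor among all 12982 (0%), and 3 of 19 (15.8%) had an unadjusted p below 0.05, against 6.83% of tested genes. For Dab2 the difference between both comparisons was -2.08 ± 0.29 (SE; adjusted p = 0.133), since Dab2 was lower in Bmi1-labelled embryoid bodies and higher in Bmi1-labelled ES cells than in the vector and control samples. With the set term it was called (adjusted p = 0.0212), where 0.824% of tested genes were. Without that term and without vector embryoid body replicate 2 the Dab2 value was -2.06. Rbp4 had -2.19 ± 0.64 (SE; adjusted p = 0.479, or 0.152 with the set term). On the other Dab2 probe sets, 1430604_a_at and 1423805_at lay lower in Bmi1-labelled embryoid bodies in both sets, by 0.93 and 0.95 on average, and 1429693_at differed by -0.06. Averaging the 4 probe sets gave -1.19 for the difference between both comparisons (adjusted p = 0.303) and 0.50 between the ES cell groups. The rise of Dab2 over stages was seen on all 4 probe sets, with 2.75 to 4.65 between vector embryoid bodies and control ES cells.

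**Figure D4:**
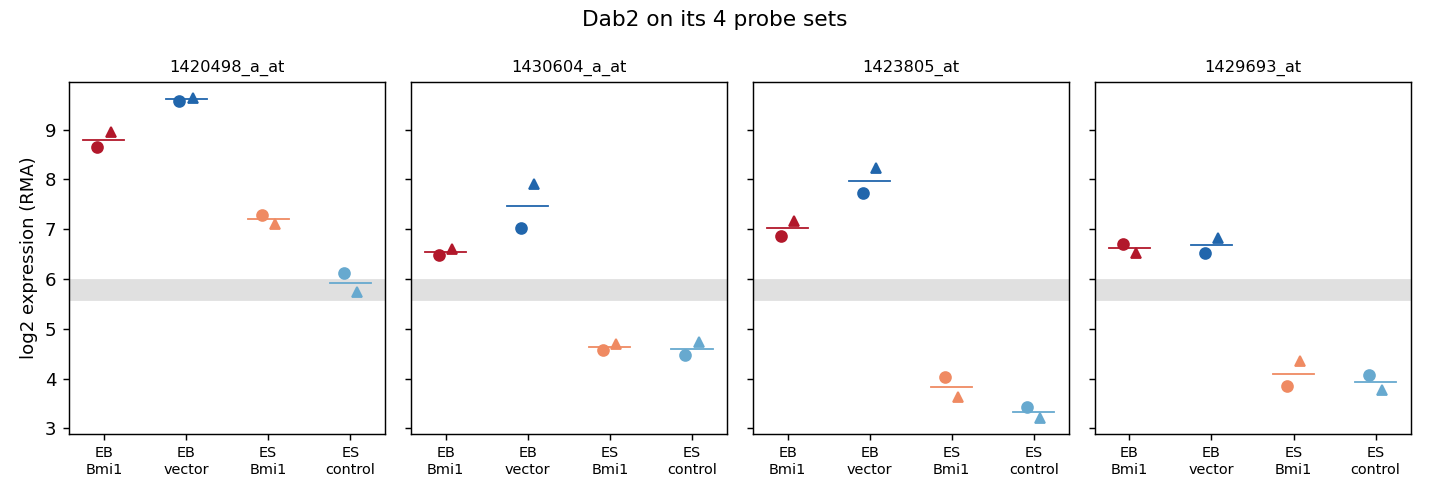
Log2 expression (vertical axis) of Dab2 on its 4 probe sets, for the 4 groups from left to right, embryoid bodies before ES cells and those labelled Bmi1 first, with circles and triangles for the arrays 1 and 2 of a group, bars for group means and a grey band for the range of array medians. On 3 of the probe sets the Bmi1-labelled embryoid bodies lie below the vector ones, while on the fourth the groups overlap.

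Over all 54 probe sets of the 29 genes, 12 genes having several, 25 lay entirely lower and 1 entirely higher in Bmi1-labelled embryoid bodies than in vector embryoid bodies. Within the sets, 26 were lower in both and 6 higher in both. Probe sets of one gene share its transcript and are not independent.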

How the data were processed

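Total RNA of 8 samples was hybridised to Affymetrix arrays, and the deposited log2 values are the authors' RMA output; the method comes from the submitters' processing notes without a version. Of 45101 probe sets, 64 were array controls and were left out, and 34945 of the rest had 1 gene symbol in the platform annotation, 932 several and 9160 none. A gene was represented by its probe set with 1 symbol that had the highest mean over all 8 arrays, called its brightest. Genes above the array median on at least 2 arrays entered 1 limma 3.58.1 fit (R 4.3.3) with 4 groups and 4 residual degrees of freedom. P-values were two-sided, with Benjamini-Hochberg adjustment over 12982 genes and a threshold of 0.05. The fit was tested on simulated data.

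Value distributions differed by at most 0.0325 within 3 sets of arrays (the replicate 1 embryoid bodies, the replicate 2 embryoid bodies, the ES cells) and by 0.189 to 0.442 between sets. Deviations of the embryoid body arrays of the same number correlated at 0.721, against 0.0273 and 0.0378 with the Bmi1-labelled ES cell arrays of that number. The control ES cell arrays were not compared in this way. A term for the embryoid body set (3 residual degrees of freedom) is therefore given where it changes a result. Stage differences cross these sets and can hold a part that comes from scaling.

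The genes and lists were chosen with earlier results of these data known. Named in full were, per role, the genes with the smallest p between the embryoid body groups, Afp, Alb, Ttr, Hnf4a and Foxa2, up to 3 genes of each other list, and probe sets of a gene that disagreed in sign. Other genes were named after their values were seen. With so few arrays the precision is low. Promoter sequences are from RefSeq GRCm38.p6.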

Additional observations from a re-analysis of the deposited data

Results flagged for a closer look

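Dab2 was marked because its difference between samples labelled Bmi1 and their vector or control samples was not the same in embryoid bodies and ES cells. With a term for the embryoid body set the difference between both comparisons was -2.08 (limma, adjusted p = 0.0212). Without that term the adjusted p was 0.133. Leaving out each array in turn gave -2.27 to -1.89. Averaging its 4 probe sets moved the value to -1.19 (adjusted p = 0.303), with 0.50 between the ES cell groups, against 1.27 on the brightest probe set.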

How the results depend on the processing

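The 10 summary results (members called and their median log2 difference in 5 comparisons) gave 174 values under alternatives, of which 150 were counted as unchanged. A number of calls counted as unchanged where it was equal or close to the main one. A median counted as unchanged where it moved by less than the spread between replicates, even if its sign changed. Vector embryoid bodies minus control ES cells: 23 calls (main 9) with every probe set taken singly, and medians of 3.19 with the 75th percentile filter, 2.42 with every probe set, and 1.49 after averaging probe sets by gene (main 0.78). Bmi1-labelled embryoid bodies minus Bmi1-labelled ES cells: 6 calls with the 75th percentile filter, where 8 genes were tested, and 23 with every probe set (main 11), and medians of 0.78 without a filter, 2.04 with the 75th percentile filter, 1.58 with every probe set, 1.25 after averaging, 0.76 after quantile normalization and 0.62 after centring (main 0.97). Bmi1-labelled minus control ES cells: 1 call (Dab2) with the replicate block and 2 (Dab2 and Cldn6) with ES cell arrays alone (main 0), and a median of 0.23 with the 75th percentile filter (main 0.01). The replicate block (the embryoid body set) gave 1 call (Dab2) in the difference between the embryoid body and the ES cell comparison (main 0) and called no gene of the list between the embryoid body groups. Over all tested genes it moved the calls between the embryoid body groups to 271, against 18 without it, and those between the ES cell groups to 216, against 6; these ranged from 0 to 271 and from 0 to 216 over the alternatives. Leaving out each array in turn gave 0 to 1 calls (Apoa1, without vector replicate 1) and medians of -0.75 to -0.12 between the embryoid body groups (main -0.31), 7 to 13 calls and medians of 0.69 to 1.27 for vector embryoid bodies minus control ES cells, 6 to 14 calls and medians of 0.64 to 1.11 for Bmi1-labelled embryoid bodies minus Bmi1-labelled ES cells, medians of -0.0151 to 0.0767 between the ES cell groups, and 0 to 1 calls (Dab2, without vector embryoid body replicate 2) and medians of -0.82 to -0.12 for the difference between comparisons. Where the filter or the probe set rule differed, fewer or more features were tested. With every probe set taken singly, the 23 calls of each stage comparison count probe sets, with several of one gene among them. They are not comparable with the main counts, which are of genes. Other causes were not tested. An array left alone in its group was assumed to vary like the rest. Probe signal near the array median limits what can be said of the 10 dim genes.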
